A study of Mus musculus with 4 samples.

Results

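The 10 genes described here are genes that hypoxia-inducible factors (HIF) are known to switch on, and that do not encode enzymes of glycolysis, were followed through spatial transcriptomes of mouse brain. They were chosen by symbol, as Adm, Angptl4, Car9, Bnip3, Egln1, Egln3, Ankrd37, Ndrg1, Ddit4 and Hilpda, and each matched 1 of the 32285 genes in the files, so there are 10 members. The knockout group had the genotype Slco1c1-iCreERT2;Pdcd10fl/fl, a tamoxifen-activated Cre on a conditional Pdcd10 allele, and the control group was made of Pdcd10fl/fl littermates. Pdcd10, also called Ccm3, is a gene whose loss from brain endothelium produces cerebral cavernous malformations, and Slco1c1 drives the Cre in brain endothelium. All mice are described as given 50 μg of 4-hydroxytamoxifen on postnatal day 1 and as studied on postnatal day 65, as 10 μm frozen sections on 10x Visium slides, with 2 libraries per group.

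The oxygen labels of the series conflict, and they bear on every value below. Sample titles and the design text place both groups in normoxia, the treatment label reads hypoxia for both knockout libraries and normoxia for both control libraries, and a protocol text attached to all 4 libraries gives 12% oxygen for 2 days. If the treatment label holds, genotype and oxygen cannot be told apart in any comparison here. Whether both sections of a genotype are from 1 mouse or from different mice is not in the labels, so the tests below speak of the variation among these 4 sections and no further.

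In cells with enough oxygen, prolyl hydroxylases encoded by the Egln genes mark the alpha subunits of HIF, and the VHL ubiquitin ligase then has them degraded. When oxygen is short the hydroxylases slow down, the alpha subunits pair with ARNT, and the pair binds short elements with an ACGTG or GCGTG core near its target genes. The targets include the hydroxylases themselves, secreted vascular and metabolic signals, and proteins of pH, mitochondria, lipid droplets and growth control. Several of them also answer to other regulators: Angptl4 and Hilpda to PPAR factors, and Ddit4 and Angptl4 to glucocorticoids.

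Promoter windows of 4 members that were higher in knockout sections are shown because they differ in how many HIF core motifs they hold. Each runs from 250 bases before to 50 bases after an annotated start, on the gene's own strand, from RefSeq (GRCm38.p6, the assembly also called mm10). Capitals mark every ACGTG or GCGTG, which read CACGT or CACGC where they lie on the opposite strand, and overlapping matches were counted. The windows lie at chr4:43506776-43507075 (+) for Car9, chr7:110627407-110627706 (+) for Adm, chr7:138909457-138909756 (-) for Bnip3 and chr8:45999801-46000100 (-) for Ankrd37. The Ankrd37 window lies wholly inside the gene's locus (chr8:45996908-46000414), so its start is not the outermost one, while the other windows span the edge of their locus.
Car9: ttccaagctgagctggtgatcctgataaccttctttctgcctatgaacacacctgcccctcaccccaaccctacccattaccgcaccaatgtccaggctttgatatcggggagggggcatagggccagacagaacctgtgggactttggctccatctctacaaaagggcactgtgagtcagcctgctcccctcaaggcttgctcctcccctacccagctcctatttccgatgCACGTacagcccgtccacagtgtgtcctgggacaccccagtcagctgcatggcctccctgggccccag
Adm: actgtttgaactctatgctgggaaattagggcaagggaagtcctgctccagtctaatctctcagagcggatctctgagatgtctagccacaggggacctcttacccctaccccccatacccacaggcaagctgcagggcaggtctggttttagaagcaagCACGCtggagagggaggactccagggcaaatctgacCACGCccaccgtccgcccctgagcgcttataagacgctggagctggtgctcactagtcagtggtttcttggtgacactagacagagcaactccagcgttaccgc
Bnip3: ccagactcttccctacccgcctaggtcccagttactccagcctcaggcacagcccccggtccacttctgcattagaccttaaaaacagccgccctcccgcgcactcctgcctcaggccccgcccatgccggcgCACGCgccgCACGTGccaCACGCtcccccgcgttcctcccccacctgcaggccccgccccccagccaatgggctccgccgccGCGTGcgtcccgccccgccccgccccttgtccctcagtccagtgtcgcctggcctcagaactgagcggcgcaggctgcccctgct
Ankrd37: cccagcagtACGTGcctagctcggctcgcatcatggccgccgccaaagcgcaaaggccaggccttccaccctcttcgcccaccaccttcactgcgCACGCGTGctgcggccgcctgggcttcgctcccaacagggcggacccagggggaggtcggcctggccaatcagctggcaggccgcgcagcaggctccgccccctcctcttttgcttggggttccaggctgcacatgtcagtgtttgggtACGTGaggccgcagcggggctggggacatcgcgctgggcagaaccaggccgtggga
The Car9 window holds 1 match, the Adm window 2 (both GCGTG), the Ankrd37 window 4 and the Bnip3 window 5, where a palindromic CACGTG counts on both strands. Windows of 8 members could be read, 9 in all with 2 starts for Hilpda, and all 9 hold at least 1 match, against 43.8% of the 32851 windows in the table. ACGTG itself is in 7 of the 9 windows (77.8%), against 19.6% of all windows. Angptl4 and Ndrg1 had no window, and the 2 Hilpda windows overlap and share 1 GCGTG. The members were chosen as known HIF targets, and base composition was not matched. A match says only that these letters are in the window.

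The files hold counts of unique molecular identifiers (UMIs, 1 per captured RNA molecule) for 4992 spot barcodes, each spot covering several cells. Library totals were 53514669 and 74467027 UMIs in the knockouts, against 50148764 and 64317838 UMIs in the controls, and 4599 and 4472 spots, against 2931 and 4096 spots, held at least 1000 UMIs and were used. Pdcd10 itself, whose loss is aimed at brain endothelium, was at 80.3 and 83.0 counts-per-million (CPM) in knockouts, against 90.9 and 82.3 CPM in controls, and did not pass the test. Which cells lost it was not measured here. All 15 neuronal and all 11 myelin markers were found in every library. The sections differed in composition: the 14 endothelial markers summed to 616 and 607 plain CPM (UMIs over all UMIs of the spots, with no further scaling) in knockouts, against 289 and 288 in controls, the 21 reactive astrocyte markers to 1559 and 1534, against 185 and 206, and the 11 myelin markers to 5008 and 3611, against 8365 and 11814. Pituitary markers, at 6.84 and 6.97 plain CPM in knockouts, against 217 and 85.5 in controls, show that the control sections included tissue that was scarce in the knockout sections. Spots of at least 5000 UMIs were also given to the region whose markers they matched best. White matter took 17.9% and 13.3% of them in knockouts, against 39.6% and 44.0% in controls. Midbrain and hindbrain took 11.9% and 11.1%, against 2.29% and 1.41%. Cortex was closer, at 21.0% and 22.1%, against 24.7% and 24.1%.

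Of the 10 members, 7 were higher and 1 was lower in knockout sections at an adjusted p under 0.05 (edgeR's quasi-likelihood test on UMIs summed per library, adjusted over 17546 genes). Adm, Angptl4 and Car9 differed most, followed by Bnip3, Ddit4, Ankrd37 and Egln3 at 1.48 to 1.66-fold, while Ndrg1 was lower and Egln1 and Hilpda did not pass. In the same test 20.1% of all genes were higher and 18.3% lower, 38.4% in all. The members' median log2 fold change (knockout over control) was 0.60, beside -0.00082 over all genes tested. In all 10 members the 2 knockout libraries lay on 1 side of the 2 control libraries, which was true of 72.5% of all genes. Because spots mix cells, more cells of a type and more RNA per cell cannot be told apart in any of these values.

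**Figure D1:**
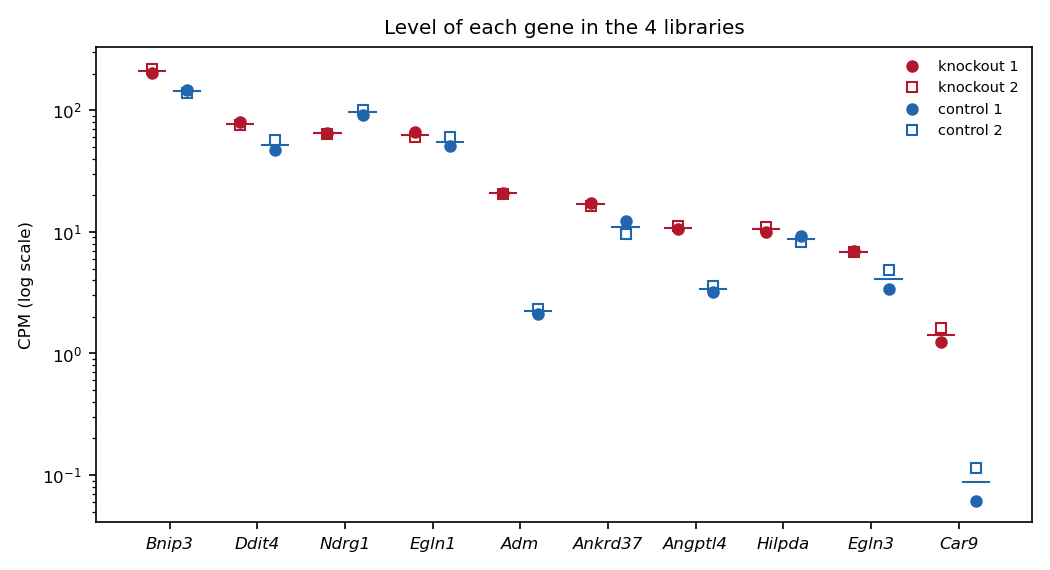
Level of each member in CPM (log axis), with 1 marker per library, knockout left of control, and a bar at the group mean. Adm, Angptl4 and Car9 stand furthest apart between the groups, Ndrg1 is the 1 member that is lower in knockout sections, and the knockout and control markers of Egln1 nearly touch. Levels of different genes are not compared.

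Among the secreted signals, Adm, which encodes the vasodilator peptide adrenomedullin (chr7:110627657-110629820), was at 21.1 and 20.3 CPM in the knockouts, against 2.13 and 2.34 CPM in the controls, from 1136 and 1565 UMIs, against 104 and 144. Both knockout libraries lay far above both controls. The log2 fold change was 3.20 (SE 0.103, adjusted p = 4.48e-06), a 9.22-fold difference. Angptl4, a secreted inhibitor of lipoprotein lipase (chr17:33774900-33781575), reached 10.5 and 11.2 CPM, against 3.19 and 3.56 CPM in controls. The groups were again apart, with a log2 fold change of 1.68 (SE 0.115, adjusted p = 9.2e-05).

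Car9 is a membrane carbonic anhydrase that acidifies the outside of hypoxic cells (chr4:43507026-43513729), and it was rare. It gave 67 and 124 UMIs in the knockouts, against 3 and 7 UMIs in the controls, or 1.24 and 1.61 CPM, against 0.0614 and 0.114 CPM. Pooled over libraries and scaled for depth this is a 16.1-fold difference, with an exact 95% counting interval of 8.57 to 34.1 that covers counting error only. The test across genes gave a log2 fold change of 3.96 (SE 0.359, adjusted p = 0.000295). Car9 overlaps Arhgef39 and Tpm2 in the annotation, and whether the counting used strand is not given in the sources used here.

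Bnip3, which tags mitochondria for autophagy (chr7:138890836-138909506), was at 203 and 220 CPM in knockouts, against 147 and 139 CPM in controls. The groups did not overlap, and the log2 fold change was 0.57 (SE 0.0767, adjusted p = 0.00167). Ddit4, an inhibitor of mTORC1 also called REDD1 (chr10:59949675-59951770), was at 80.5 and 75.4 CPM, against 47.6 and 56.6 CPM in controls. Its log2 fold change was 0.58 (SE 0.094, adjusted p = 0.00344). It was 0.94 in region-matched sums, where each library gave the same number of spots per brain region. Those spots held at least 5000 UMIs and were thinned to 5000. Ankrd37, an ankyrin repeat gene whose locus overlaps Ufsp2 (chr8:45996908-46000414), was at 17.4 and 16.5 CPM, against 12.4 and 9.70 CPM in controls, a log2 fold change of 0.62 (SE 0.123, adjusted p = 0.0075). These 3 genes differed by similar amounts, and in each the lower knockout library was above the higher control library.

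The list holds 2 oxygen-sensing hydroxylases. Egln3, or PHD3 (chr12:54178981-54203874), was at 6.92 and 6.84 CPM in knockouts, against 3.42 and 4.83 CPM in controls, with a log2 fold change of 0.73 (SE 0.167, adjusted p = 0.0133). Its control libraries were less alike than its knockout libraries, and the fold change was 0.51 without control 1 and 1.01 without control 2. With every spot thinned to 1000 UMIs Egln3 did not pass (adjusted p = 0.0742, within a range of 1.7e-06 to 0.0742 over the alternatives for whole sections), and in region-matched sums its log2 fold change was 1.07.

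Egln1, or PHD2, the main sensor in most tissues (chr8:124908587-124949254), was at 66.6 and 60.0 CPM in knockouts, against 50.8 and 59.8 CPM in controls. Knockout 2 and control 2 were nearly equal, and Egln1 differed by 0.19 on the log2 scale (SE 0.0965) with an adjusted p of 0.153, which did not pass. The test called it higher without control 2 (log2 fold change 0.32) and in region-matched sums (0.31), and its adjusted p ran between 0.00806 and 0.537 over the alternatives for whole sections. Hilpda, a lipid droplet protein that inhibits the lipase Pnpla2 (chr6:29272488-29275449), was at 10.1 and 11.1 CPM, against 9.25 and 8.32 CPM in controls. It differed by 0.27 on the log2 scale (SE 0.104, adjusted p = 0.0771) and was called higher only without control 1 (0.35), with adjusted p between 0.047 and 0.534 over the alternatives for whole sections. Neither gene was called in the main test on whole sections.

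Ndrg1, a stress-responsive protein that myelinating cells need (chr15:66929318-66969641), was the 1 member that was lower. It was at 65.2 and 64.2 CPM in knockouts, against 92.2 and 101 CPM in controls, a log2 fold change of -0.58 (SE 0.0725, adjusted p = 0.00122). Myelin markers moved the same way, with all 11 detected and a summed level of 3611 to 5008 plain CPM in knockouts, against 8365 to 11814 in controls. In region-matched sums, drawn from spots of at least 5000 UMIs thinned to 5000, Ndrg1 was still lower but by a log2 fold change of -0.26. White matter spots were drawn there in equal numbers, but depth and the spots kept also differed from whole sections. Whether the share of myelin bears on the level of Ndrg1 was not tested.

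To see where in the sections the members lay, the spots of each library were ranked by the share of their UMIs in a marker list, and the top 10% were called vessel-rich (endothelial list), reactive (reactive astrocyte list), neuronal, myelin-rich or phagocyte-rich. No member is in a marker list. Class spots were set against the remaining spots of their own library in a fit with a term for each library, and the effect was averaged over the genotypes. The classes overlap: 21.7 to 23.5% of vessel-rich spots were also reactive, where 10% would be shared by unrelated rankings. Vessel-rich spots were shallower than other spots, with median UMIs of 3554 and 8184 in knockouts, against 7310 and 1868 in controls, while the other spots had 8981 and 13707, against 16232 and 17438. Reactive spots were shallower too, at 4775 and 7144 in knockouts, against 6743 and 2228 in controls. Spots outside the reactive class had 8854 and 14086, against 16276 and 17393.5. The reactive class began at a marker share of 0.386% and 0.378% in knockouts, against 0.0586% and 0.0602% in controls, so that it holds tissue of different reactivity in the 2 genotypes. In shallow control spots, a marker share near the start of the vessel-rich or reactive class rests on very few marker UMIs.

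In vessel-rich spots 5 members were higher and 1 was lower than in other spots, where 14% and 11.4% of all genes were. Angptl4 was most enriched there, at 25.1 and 31.2 CPM in knockouts, against 9.64 and 9.81 CPM in their other spots, and at 7.84 and 11.2 CPM in controls, against 2.93 and 3.17 CPM. It was higher in vessel-rich spots of all 4 libraries, with a log2 class effect of 1.59 (SE 0.159, adjusted p = 2.79e-06). Adm was at 53.5 and 38.1 CPM in vessel-rich spots of knockouts, against 19.2 and 19.0 CPM in their other spots. In controls it was at 3.30 and 2.89 CPM, from 8 UMIs in each library, against 2.05 and 2.30 CPM.

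The averaged class effect of Adm in vessel-rich spots was 0.86 (SE 0.224, adjusted p = 0.00985), and it did not pass without control 1 (0.75). Ankrd37 (0.52), Ndrg1 (0.46) and Ddit4 (0.39) were also higher in vessel-rich spots, and Bnip3 was lower (-0.17). Taken alone, the effects of Adm (1.23) and Ankrd37 (0.70) passed in knockouts, and neither passed in controls (0.50 and 0.33). Ankrd37 did not pass without knockout 2 (0.41) or without control 2 (0.34), and Bnip3 did not pass without knockout 2 (-0.13), control 1 (-0.16) or control 2 (-0.21). All 6 of these calls held in the fit on spots of at least 5000 UMIs. No member differed between the genotypes in its vessel effect, where 0.0826% of all genes did.

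**Figure D2:**
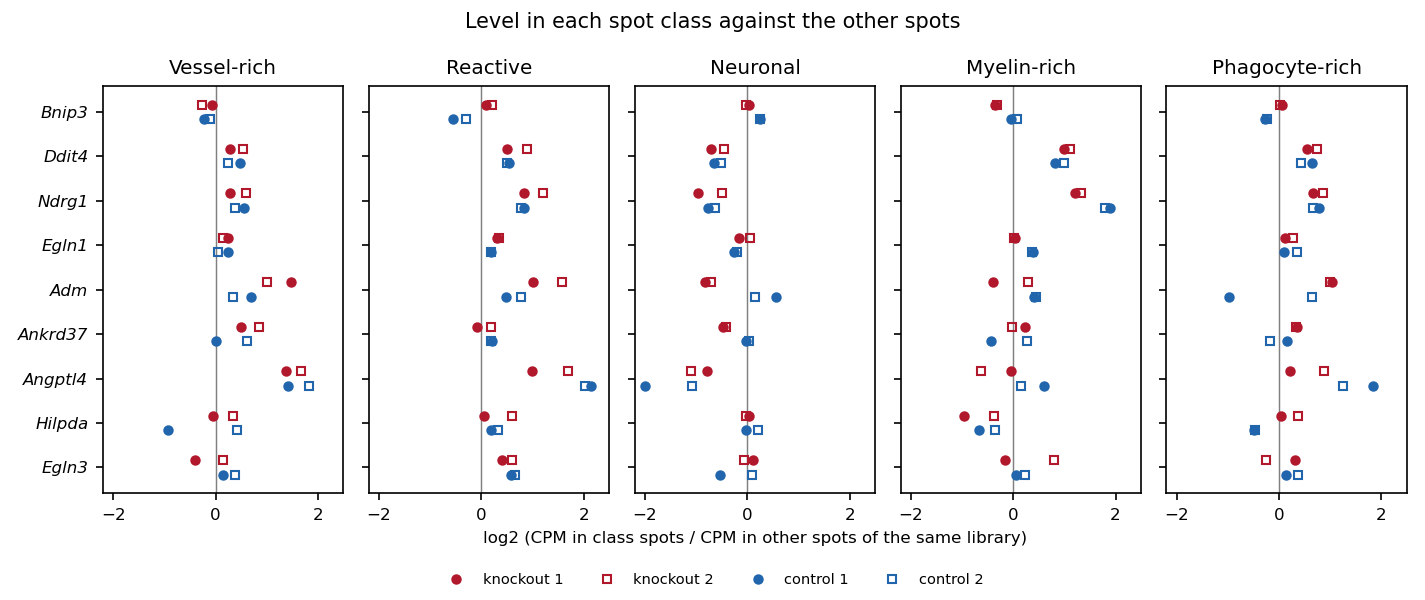
Level in the spots of each class relative to the other spots of the same library, as log2 of the ratio of CPM, with 1 marker per library and knockouts above controls. Angptl4 lies right of 0 in vessel-rich and reactive spots and left of 0 in neuronal spots in all 4 libraries, and Adm in neuronal spots lies left of 0 in knockouts and right of 0 in controls. Car9 is left out because the controls had 0 or 1 UMI in each class.

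Reactive spots held 6 members at a higher and 1 at a lower level than other spots, where 21.8% of all genes were higher and 24.1% lower. Angptl4 was at 19.5 and 32.4 CPM in reactive spots of knockouts, against 9.86 and 10.0 CPM in their other spots, and at 11.9 and 12.4 CPM in controls, against 2.70 and 3.04 CPM. Its log2 class effect was 1.74 (SE 0.155, adjusted p = 1.74e-13). Adm was at 39.8 and 54.7 CPM in knockouts, against 19.8 and 18.4 CPM in other spots, and at 2.88 and 3.82 CPM in controls, against 2.06 and 2.23 CPM, an effect of 0.99 (SE 0.217, adjusted p = 0.000154). Both signals were thus higher in reactive spots of every library, though Adm in controls rests on 7 and 12 UMIs. Taken alone, the effect of Adm passed in knockouts (1.32) and did not in controls (0.66).

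Ndrg1 (0.92), Ddit4 (0.62), Egln3 (0.57) and Egln1 (0.26) were higher in reactive spots too. Egln3 did not pass without knockout 2 (0.51) or control 2 (0.54). Bnip3 pointed opposite ways by genotype: it was at 213 and 249 CPM in reactive spots of knockouts, against 200 and 217 CPM in other spots, and at 101 and 112 CPM in controls, against 147 and 139 CPM. Taken alone, the effect passed in controls (-0.42) and did not in knockouts (0.15). Its averaged effect of -0.14 did not pass in spots of at least 5000 UMIs (-0.07), while the difference of the effect between genotypes did (0.57, SE 0.101, adjusted p = 4.18e-05), as it did for 11.9% of all genes. The averaged effect of Bnip3 was also not called without knockout 1 (-0.12), knockout 2 (-0.17) or control 1 (-0.09).

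Car9 is too sparse for class effects in controls, where the 10 UMIs of both libraries put at most 1 in any class. In knockouts, 11 of 67 UMIs (16.4%, 95% Wilson interval 9.42 to 27.1) and 24 of 124 UMIs (19.4%, 13.4 to 27.2) fell in reactive spots, which held 5.40% and 5.17% of all UMIs. Within knockouts alone the reactive class effect of Car9 was 2.07 (SE 0.435, adjusted p = 0.00014). In vessel-rich spots the 2 libraries parted, with 4.49 CPM in knockout 1 and 1.42 CPM in knockout 2, against 1.06 and 1.62 CPM in other spots. Car9 was therefore richer in reactive spots of both knockout libraries, and in vessel-rich spots of knockout 1 but not of knockout 2.

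Graded over all spots of at least 5000 UMIs, split into 10 equal bins by reactive astrocyte share, Adm in knockouts was at 13.2 and 9.83 plain CPM in the lowest bin and at 37.3 and 52.5 in the highest. In controls Adm stayed between 1.44 and 4.07 plain CPM over all bins. Car9 in knockouts was at 0 and 0.231 plain CPM in the lowest bin and at 3.97 and 5.73 in the highest. Angptl4 was at 5.72 and 6.36 in the lowest bin and at 18.8 and 32.4 in the highest bin of knockouts. In controls Angptl4 kept below 5 up to bin 9 and reached 13.2 and 9.94 in bin 10. The bins were cut within each library, so a bin holds a higher marker share in knockouts than in controls.

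**Figure D3:**
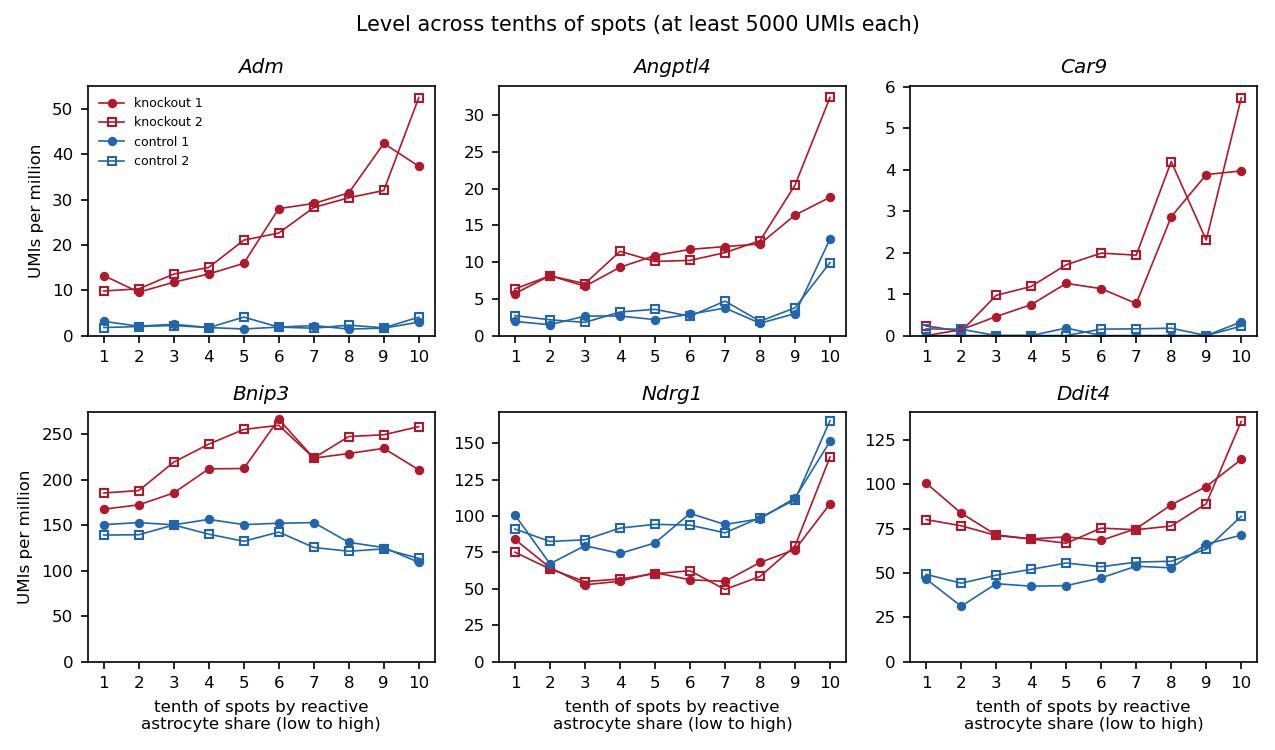
plain CPM of 6 members over 10 equal bins of spots of at least 5000 UMIs, ordered within each library by reactive astrocyte share, with 1 line per library. Adm, Angptl4 and Car9 are higher in the last bin than in the first in both knockout libraries, Bnip3 is lower at high share in controls, and Ndrg1 and Ddit4 are highest in the last bin of all 4 libraries, with the knockout lines below the control lines for Ndrg1 and above them for Ddit4.

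In the bin of least reactive astrocyte share, the knockouts were above the controls for several members. Adm was at 13.2 and 9.83 plain CPM there, against 3.12 and 1.76 in controls, and Angptl4 at 5.72 and 6.36, against 1.92 and 2.72. Bnip3 was at 168 and 185 plain CPM, against 151 and 139, and Ddit4 at 101 and 80.1, against 46.6 and 49.2. For Car9 the values in that bin were 0 and 0.231, against 0 and 0.16, from 0 and 2 UMIs, against 0 and 1. Egln3 was at 7.52 and 7.28 in knockouts, against 3.12 and 6.39 in controls. The lowest bin is not matched for reactivity between the genotypes, because bins were cut within each library. Spots outside the reactive class had a median marker share of 0.170% and 0.161% in knockouts, against 0.0101% and 0.00970% in controls.

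Neuronal spots had 1 member higher and 5 lower than in other spots, where 19% and 20.9% of all genes were. The neuronal class began at a marker share of 1.08% and 1.15% in knockouts, against 1.12% and 1.04% in controls. Other spots had medians of 0.795% and 0.859%, against 0.759% and 0.700%, so they held neuronal markers too. Angptl4 was at 6.43 and 5.62 CPM in neuronal spots of knockouts, against 11.1 and 12.0 CPM in other spots, and at 0.884 and 1.83 CPM in controls, against 3.51 and 3.85 CPM. Its log2 class effect was -1.16 (SE 0.168, adjusted p = 6.28e-06). Ndrg1 (-0.69), Ddit4 (-0.57), Ankrd37 (-0.23) and Egln1 (-0.14) were also lower, and Bnip3 was higher (0.13). Ankrd37 did not pass when any 1 library was left out (-0.21 to -0.25), nor did Egln1 without knockout 1 (-0.09), control 1 (-0.13) or control 2 (-0.16).

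Adm in neuronal spots depended on genotype. It was at 12.6 and 13.1 CPM in neuronal spots of knockouts, against 22.4 and 21.4 CPM in other spots, and at 3.0 and 2.56 CPM in controls, against 2.02 and 2.32 CPM. The class effect was thus negative in both knockouts and positive in both controls, from 17 and 21 UMIs. Taken alone, the effect passed in knockouts (-0.77) and did not in controls (0.32). The difference between genotypes was -1.09 (SE 0.288, adjusted p = 0.0173). That difference did not pass in spots of at least 5000 UMIs (-0.86), without control 1 (-0.91) or without control 2 (-1.33). Bnip3 was the other member whose neuronal effect differed between genotypes (-0.24, adjusted p = 0.0167), 2 of 10 beside 8.74% of all genes, and it did not pass without knockout 2 (-0.21), control 1 (-0.23) or control 2 (-0.24).

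Myelin-rich spots set Ndrg1 and Ddit4 apart from the rest. Ndrg1 was at 127 and 139 CPM there in knockouts, against 55.5 and 55.7 CPM in other spots, and at 275 and 263 CPM in controls, against 74.5 and 76.1 CPM. The log2 class effect was 1.55 (SE 0.0519, adjusted p = 1.17e-26), and it was smaller in knockouts by 0.57 (difference -0.57, adjusted p = 9.92e-05). Ddit4 was at 140 and 144 CPM, against 70.6 and 67.2 CPM, in knockouts and at 76.6 and 98.1 CPM, against 43.8 and 49.3 CPM, in controls, an effect of 0.98 (SE 0.053, adjusted p = 1.3e-19). Both genes were higher in myelin-rich spots of all 4 libraries, but the knockouts were lower than controls for Ndrg1 and higher for Ddit4.

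Egln1 (0.21) was higher and Hilpda (-0.55) and Bnip3 (-0.16) were lower in myelin-rich spots, which makes 3 higher and 2 lower members where 24.3% and 27.4% of all genes were. Hilpda was at 5.28 and 8.496 CPM in myelin-rich spots of knockouts, against 10.3 and 10.99 CPM in other spots, and at 5.85 and 6.502 CPM in controls, against 9.24 and 8.29 CPM. Myelin effects differed between genotypes for Ndrg1, Bnip3 (-0.35) and Egln1 (-0.35), 3 of 10 beside 9.17% of all genes. The difference of Egln1 did not pass in spots of at least 5000 UMIs, and those of Bnip3 and Egln1 did not pass without knockout 1, knockout 2 or control 2. The myelin-rich class began at a marker share of 1.26% and 1.04% in knockouts, against 2.58% and 2.52% in controls, so it too holds different tissue in the 2 genotypes.

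Phagocyte-rich spots had 5 members higher and 0 lower, where 17.9% and 18% of all genes were. They were Angptl4 (1.07), Ndrg1 (0.75), Adm (0.61), Ddit4 (0.59) and Egln1 (0.23). Adm was at 40.5 and 38.2 CPM in these spots of knockouts, against 19.7 and 19.1 CPM in other spots, and in controls at 1.09 and 3.45 CPM, against 2.15 and 2.21 CPM, with 3 and 15 UMIs. Its effect vanished without control 2 (0.03), and Egln1 did not pass without knockout 2 (0.18) or control 2 (0.15). Up to 32.2% of reactive spots were also phagocyte-rich, and the classes cannot be separated there. No member's phagocyte effect differed between genotypes, where 6.94% of all genes did.

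Set in order of level, Adm in knockouts was highest in vessel-rich (53.5 and 38.1 CPM), reactive (39.8 and 54.7 CPM) and phagocyte-rich spots (40.5 and 38.2 CPM), which overlap in range. Below them came myelin-rich spots (16.0 and 23.8 CPM) and then neuronal spots (12.6 and 13.1 CPM), whose ranges do not overlap. Angptl4 in knockouts was highest in vessel-rich (25.1 and 31.2 CPM) and reactive spots (19.5 and 32.4 CPM), which overlap, and the upper of the phagocyte-rich values lay at the edge of the reactive range. The order went on with phagocyte-rich (11.9 and 19.6 CPM), myelin-rich (9.90 and 7.26 CPM) and neuronal spots (6.43 and 5.62 CPM), none of which overlap. Bnip3 in knockouts ran from 249 CPM in reactive spots of knockout 2 down to 158 CPM in myelin-rich spots of knockout 1, with vessel-rich (192 and 186 CPM), neuronal (209 and 219 CPM) and phagocyte-rich spots (207 and 221 CPM) in between. In controls Bnip3 was instead highest in neuronal spots (172 and 161 CPM) and lowest in reactive spots (101 and 112 CPM).

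The difference between the genotypes was next measured inside the spots of each class. Like the reactive and myelin-rich classes, the vessel-rich class (from 0.150% and 0.133% in knockouts, against 0.0649% and 0.0644% in controls) and the phagocyte-rich class (from 0.244% and 0.230%, against 0.1004% and 0.0971%) began at different marker shares, so these folds compare unlike spots. Of 9 members tested in vessel-rich spots, 5 were higher and 1 lower in knockouts (beside 9.25% and 7.99% of all genes), in reactive spots 5 and 1 of 10 (15.2% and 14.5%), and in neuronal spots 5 and 1 of 9 (14% and 14.6%). Myelin-rich and phagocyte-rich spots each had 6 higher and 1 lower of 9 (13.3% and 15.3%, and 15.9% and 15.5%). In the spots outside each class, 7 were higher and 1 lower every time, beside 19 to 20.3% and 17.5 to 18.8% of all genes. Adm, Angptl4, Bnip3 and Ddit4 were higher and Ndrg1 lower within all 5 classes.

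Adm differed most in phagocyte-rich (log2 fold change 3.95, SE 0.282), vessel-rich (3.86, SE 0.296) and reactive spots (3.79, SE 0.268), less in myelin-rich spots (2.81, SE 0.263) and least in neuronal spots (2.22, SE 0.234). Of these, the neuronal effect alone passed the test of a difference between genotypes. Angptl4 differed by 2.06 (SE 0.355) in neuronal spots and by 0.94 to 1.59 in the others, and Bnip3 by 1.11 (SE 0.117) in reactive spots and by 0.27 to 0.87 in the others. Ddit4 kept to a narrow range, 0.57 to 0.75. Ndrg1 was lower by a log2 fold change of -1.0 (SE 0.0938) in myelin-rich spots, and of -0.44 (SE 0.0647) in all spots outside them. Thus Ndrg1 was lower in knockouts both within and outside myelin-rich spots.

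The 2 members that did not pass in whole sections each passed in 1 class. Egln1 was higher in neuronal spots of knockouts (60.8 and 62.1 CPM, against 43.3 and 53.1 CPM in controls, log2 fold change 0.35, adjusted p = 0.0333) and was not called in the other 4 classes, with -0.12 in myelin-rich spots. Hilpda was higher in phagocyte-rich spots (10.1 and 13.9 CPM, against 6.57 and 5.98 CPM, log2 fold change 0.98, adjusted p = 0.0159), from 28 and 58 UMIs, against 18 and 26. Egln3 passed in myelin-rich spots alone among the classes (0.88), and Ankrd37 in vessel-rich (0.98), myelin-rich (0.79) and phagocyte-rich spots (0.99) but not in reactive (0.50) or neuronal spots (0.24). Whether the fold changes differ from class to class was not tested directly. The tests above of a class effect differing between genotypes each set 1 class against the remaining spots. They called neither Hilpda, Egln3 nor Ankrd37. With 2 libraries per group, a missing call there does not show that fold changes are equal.

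**Figure D4:**
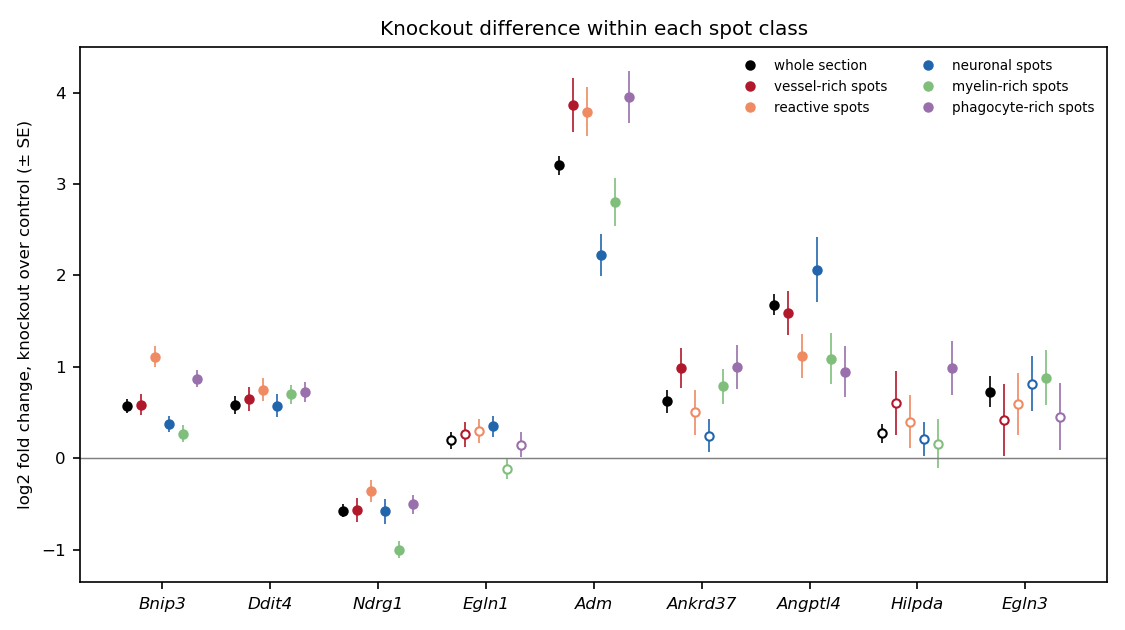
Log2 fold change, knockout over control, of 9 members in whole sections and within the spots of each class, with bars of 1 SE. Filled markers passed an adjusted p under 0.05 and open markers did not. Adm is lowest in neuronal spots, Bnip3 highest in reactive spots and Ndrg1 lowest in myelin-rich spots. Car9 is left out because it was tested in reactive spots alone among the classes.

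Spread from spot to spot was read as the ratio of variance to mean, which stays near 1 for genes with few UMIs per spot. At 5000 UMIs per spot, the means for Bnip3 were 1.00 and 1.14 UMIs in knockouts, against 0.700 and 0.642 in controls. For Adm they were 0.129 and 0.124, against 0.00838 and 0.0149, and for Ndrg1 0.370 and 0.362, against 0.547 and 0.548. Ratios of different genes are therefore not compared. With each spot thinned to 5000 UMIs, a variance equal to the mean is what random sampling gives, and Bnip3 reached a variance to mean ratio of 1.29 and 1.498 in knockouts, against 1.04 and 1.05 in controls. Adm had 1.19 and 1.15, against 0.992 and 1.04, and Ndrg1 had 1.21 and 1.20, against 1.39 and 1.42. At that depth a UMI of Adm was found in 11.2% and 10.96% of knockout spots, against 0.838% and 1.45% of control spots, and without thinning in 18.4% and 23.7%, against 3.28% and 3.32%. The ratio of Bnip3 was higher in both knockouts than in both controls, and that of Ndrg1, above 1 in all 4 libraries, was lower in both knockouts than in both controls. For Adm, Bnip3 and Ndrg1 the group with the higher mean also had the higher ratio. A difference in spread between the genotypes therefore cannot be told apart from a difference in level.

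Genes with the most similar spread over the 20 sums (5 classes in 4 libraries, log2 CPM centred per library) were named by Pearson's correlation, as a description, since the classes share spots. Angptl4 was closest to Vwf (0.97), Lamb2 (0.97) and Id3 (0.97), and Ndrg1 to Npc1, Fth1 and Qk (0.99 each). Ddit4 was closest to Gab1 (0.98), Rassf2 (0.97) and Scarb2 (0.97), and Bnip3 to Pfkp (0.93), Emc2 (0.91) and Vldlr (0.90). Adm was closest to Dmd (0.89), Insr (0.88) and Gnai3 (0.87), Egln1 to Pea15a (0.90), Gng12 and 4930402H24Rik (0.89 each), and Hilpda to Hnrnpm (0.86), Snrnp200 (0.83) and S100a10 (0.82). The likeness was weaker for Ankrd37, closest to Polr2i (0.83), Slco1a4 (0.81) and Abcg2 (0.80), and for Egln3, closest to H2afy (0.75), Zzz3 and Mrpl52 (0.67 each).

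Beyond the members, 6 of 20 regulators of the HIF pathway were higher and 3 lower in knockouts, with a median log2 fold change of 0.06. As for the lists that follow, this stands beside 20.1% higher and 18.3% lower among all genes. Hif3a, a HIF alpha subunit with inhibitory isoforms, was at 10.2 and 9.54 CPM, against 2.21 and 3.08 CPM in controls, a log2 fold change of 1.88 (SE 0.161, adjusted p = 0.000232). Cited2, which competes with HIF for its coactivators (0.57), and Arnt2, a partner subunit of the alpha chains (0.40), were higher, and Siah2, a ligase that degrades prolyl hydroxylases, was lower (-0.73). Hif1a itself was at 85.4 and 87.0 CPM, against 74.1 and 76.3 CPM, a log2 fold change of 0.20 (adjusted p = 0.0482), and Epas1 did not pass (0.35, adjusted p = 0.0728). These are RNA levels, and HIF alpha subunits are controlled mostly as proteins.

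Of 32 other HIF targets outside glycolysis, 16 were higher and 4 lower (median 0.31). Hmox1, the heme oxygenase (2.20), Edn1, the vasoconstrictor endothelin (1.35), Slc16a3, a lactate exporter (1.21), and Vegfa, the vascular growth factor (0.72), were higher. The 4 lower genes were Plod1 (-0.41), Ak4 (-0.37), Fam162a (-0.29) and Bhlhe40 (-0.27). Vegfa was at 60.4 and 65.1 CPM in knockouts, against 35.9 and 40.2 CPM in controls. Of 19 glycolytic targets, 7 were higher and none lower (median 0.14), among them the glucose transporter Slc2a1 (1.26), Pdk1, which holds pyruvate out of mitochondria (0.57), Pfkfb3 (0.53) and Pfkp (0.33). The other 12 did not pass, and for 1 of them, Ldha of lactate synthesis, the groups overlapped at 406 and 466 CPM in knockouts, against 535 and 424 CPM in controls.

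Lists for other regulators of the members were read the same way. Of 14 genes induced by glucocorticoids, 12 were higher and 1 lower (median 1.69), and those of smallest p were Plin4 (4.41), Sult1a1 (2.28), Cdkn1a (2.57) and Fkbp5 (1.64). Fkbp5, a chaperone of the glucocorticoid receptor, was at 64.6 and 60.7 CPM in knockouts, against 20.3 and 19.97 CPM in controls. Of 13 PPAR and fatty acid targets, 7 were higher and none lower (median 1.15), with the lipase Pnpla2 (1.71) and the thioesterase Acot1 (1.26) beside Plin4, a lipid droplet protein that both lists hold. Of 14 genes of the integrated stress response, 5 were higher and 4 lower (median 0.21): Nupr1 (1.40) and Vldlr (0.47) were higher, and Atf4 (-0.79) and Ddit3 (-0.31) were lower. Many of these genes are expressed by endothelium and astrocytes, whose markers were higher in knockouts, and the part this played was not tested.

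**Figure D5:**
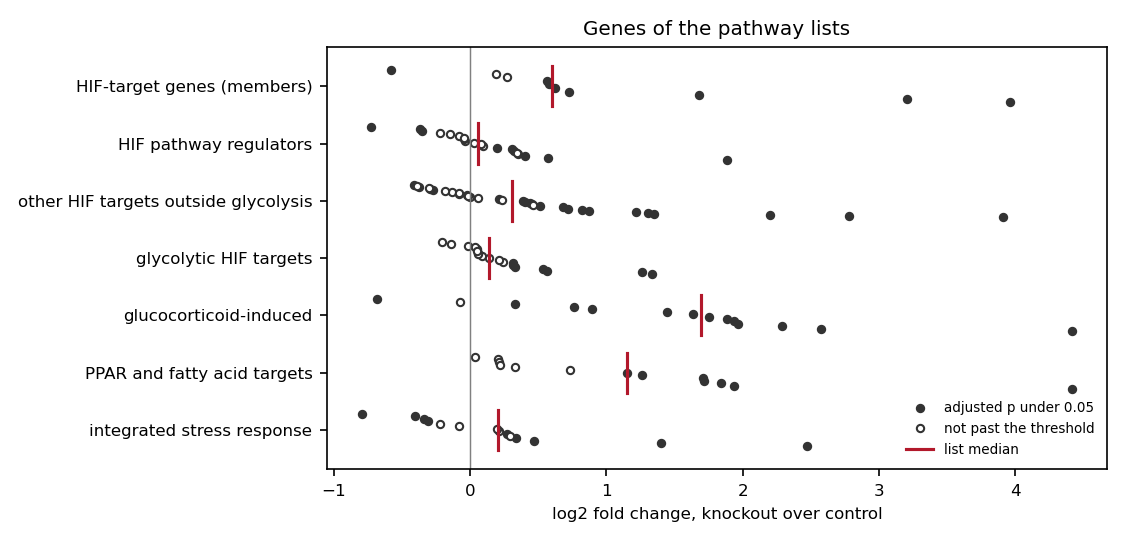
Log2 fold change, knockout over control, of every gene of the members and 6 lists, with filled markers for an adjusted p under 0.05, open markers for the rest, and a red bar at the list median. The medians are 0.60 for the members, 0.31 for other HIF targets outside glycolysis, 0.14 for glycolytic targets, 0.06 for HIF regulators, 1.69 for glucocorticoid-induced genes, 1.15 for PPAR targets and 0.21 for the integrated stress response.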

How the data were processed

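The authors deposited unnormalised counts of UMIs for each gene in each spot. Per the submitters' processing notes, Space Ranger and mm10 were used, and Cell Ranger 4 wrote the matrices, per the file headers. The release of Space Ranger, the annotation and the strand setting are not given in the sources used. Spots below 1000 UMIs were dropped, leaving 98.6 to 99.5% of the UMIs of a library. No image-based call of tissue and no spot position was used.

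UMIs were summed by library, or by library and spot class. The sums went into edgeR 4.0.16 in R 4.3.3 (TMM factors, filterByExpr, quasi-likelihood F test), p-values were adjusted by Benjamini and Hochberg's method over every gene in the fit, and calls were made at 0.05. CPM divides by the library total times its TMM factor. Each SE is the log2 change over the square root of F. Class fits had a term per library, and a class's own marker genes were kept out of its background counts. Alternatives were RLE factors, DESeq2 1.42.0, no filter, other spot minimums, thinning to 1000 UMIs, region-matched sums, no mitochondrial genes, the top 5% or 20% of spots, a replicate block and leaving out each library. Tests within class spots and a crossed pairing were added after the data were seen. The fits were tested on simulated counts.

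Members, gene lists and marker lists were chosen with earlier results of these data known. All 10 members were named, with up to 4 genes per list past the threshold by smallest p with a mean of at least 5 CPM, and the 3 genes most alike per member of at least 5 CPM, sought among genes of at least 20 CPM on log2 of CPM plus 1. Hif1a, Epas1, Ldha and the lower genes among other HIF targets outside glycolysis were named after their values were seen. For 1 gene that this rule names, no result is reported here. Matching replicate numbers correlated at -0.12 in their deviations, so the numbers were not taken as pairs.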

Additional observations from a re-analysis of the deposited data

Results flagged for a closer look

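The 10 members were tested in each of 5 classes for a class effect that differed between the genotypes, and 6 tests passed (0, 1, 2, 3 and 0 of 10 in vessel-rich, reactive, neuronal, myelin-rich and phagocyte-rich spots, beside 0.0826%, 11.9%, 8.74%, 9.17% and 6.94% of all genes), each also given with its levels in the results, and each value is knockout minus control on the log2 scale. In reactive spots the effect of Bnip3 differed by 0.57. In neuronal spots the effects of Adm (-1.09) and Bnip3 (-0.24) differed, and in myelin-rich spots those of Bnip3 (-0.35), Egln1 (-0.35) and Ndrg1 (-0.57). The difference of Bnip3 in reactive spots and that of Ndrg1 in myelin-rich spots passed under every alternative for those classes, and the other 4 did not pass when at least 1 library was left out.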

How the results depend on the processing

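Of 891 values recomputed under an alternative, 785 kept their direction and side of the threshold or, for a count, stayed within 1.5 times. In whole sections 7 members were higher and 1 lower, with 5 to 8 higher and 1 lower over the alternatives for whole sections. The replicate block gave 7 higher and 1 lower among 5813 calls, against 6739 without it, and changed no member's call in whole sections; with the numbers crossed it gave 8176 calls. DESeq2 called 5508 genes and thinning to 1000 UMIs left 3315, where Car9 was not tested. Without the filter 1 glycolytic gene was lower, thinning left 1 lower gene among other HIF targets, and region-matched sums left 2 lower stress response genes. In classes, the number of lower members was 0 for vessel-rich spots under the replicate block, and 0 for reactive spots under the replicate block, with the top 20% of spots or from 5000 UMIs. With the top 5% of spots, 3 members were lower in neuronal, 1 in myelin-rich and 1 in phagocyte-rich spots (also 1 there without the filter). Differing class effects numbered 3, 0, 1 and 2 in reactive, neuronal, myelin-rich and phagocyte-rich spots at the top 5%, 2 in reactive and 1 in phagocyte-rich spots at the top 20%, 1 in neuronal spots from 5000 UMIs and 1 in phagocyte-rich spots without the filter. Leaving out 1 library at a time gave 0 to 1 lower members in vessel-rich and in reactive spots, 3 to 4 lower in neuronal and 3 to 5 higher in phagocyte-rich spots, and 0 to 2, 1 to 3 and 0 to 1 differing effects in neuronal, myelin-rich and phagocyte-rich spots. It gave 1 to 5 lower HIF regulators, 2 to 4 lower other HIF targets, 4 to 8 higher and 0 to 1 lower glycolytic genes, 7 to 11 higher PPAR targets, and 3 to 6 higher and 2 to 5 lower stress response genes. Egln1 turned to -0.12 within myelin-rich spots. The cause was not tested in any of these. Depth limits Car9 and the controls' Adm, which had at most 22 UMIs in any class.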
